A study of Mus musculus with 2 samples.

Results

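The caveolins and cavins are the membrane and coat proteins of caveolae, and they were followed here as 7 genes among the 55536 Ensembl genes measured: Cav1, Cav2, Cav3, Cavin1, Cavin2, Cavin3 and Cavin4. They were taken by gene symbol. Total RNA of the gastrocnemius, a calf muscle, was sequenced from 2 male B6CASTF1/J mice, an F1 hybrid of C57BL/6 and CAST, at 36 days of age. The labels name no treatment or engineered allele. The animals form 1 group and were not set against any other group, so levels are given for each animal and as mean ± SD (n = 2) with no p-value. Each animal has its own sample entry, but both entries carry the same donor record, so the spread between them may be partly technical. Reads from the parental alleles were not separated.

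Caveolae are small flask-shaped pits of the plasma membrane, common in endothelium, fat cells, smooth muscle and striated muscle fibres. Caveolins are hairpin proteins of the membrane itself, and cavins form the peripheral coat that shapes the pit. Cav1 encodes the caveolin of endothelium, fat and most other cells, Cav2 encodes a partner that depends on Cav1 to reach the surface, and Cav3 encodes the caveolin of striated muscle. Cavin1 encodes the coat protein that caveolae need in all these tissues. Cavin2 and Cavin3 encode coat proteins not restricted to muscle, and Cavin4 encodes the muscle-restricted coat protein. Loss of Cav3 function causes muscle disease, and loss of CAVIN1 in people causes lipodystrophy with muscle disease.

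Replicate 1 had 36952277 expected counts (estimated reads per gene) and replicate 2 had 38754338. All 8 skeletal fibre markers were detected and their TPM values (a relative level scaled by transcript length) summed to 101852 in replicate 1 and 107019 in replicate 2. Blood vessel and fat markers were also present, at summed levels of 80.1 and 91.0 TPM for 9 endothelial markers and 109 and 135 TPM for 8 adipocyte markers. Most of the adipocyte sum was Fabp4 (79.3 and 84.5 TPM), so it rests largely on 1 gene and was not read as an amount of fat. Cfd had 19.6 and 34.8 TPM and Lep 0.45 and 0.16 TPM, and 5 of the 8 reached 1 TPM in both animals. Amounts of fat and vessel cells cannot be compared from these sums. With markers of several tissues present, the RNA is a mixture in which each form can be read. In such bulk samples fewer cells of a type and less RNA per cell cannot be told apart.

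The 3 caveolins are related in sequence, and the stretch of coding sequence shared most closely is shown here to let the muscle and non-muscle forms be compared. The window is 60 coding bases long and lies in the part that encodes the conserved caveolin signature. Capitals mark the 35 bases that are identical in all 3 genes (GENCODE M21 transcripts, sense strand, 5′ to 3′).
Cav1: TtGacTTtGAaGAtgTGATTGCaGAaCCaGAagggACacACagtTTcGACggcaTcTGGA
Cav2: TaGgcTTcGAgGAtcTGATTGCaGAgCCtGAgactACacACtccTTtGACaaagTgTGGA
Cav3: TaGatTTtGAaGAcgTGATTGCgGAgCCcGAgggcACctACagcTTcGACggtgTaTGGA
The window covers coding bases 197 to 256 of Cav1, 152 to 211 of Cav2 and 116 to 175 of Cav3. Over the aligned coding sequence Cav1 and Cav3 were 70.8% identical (432 bases aligned), Cav1 and Cav2 51.0% (486 bases) and Cav2 and Cav3 47.9% (405 bases). The muscle form is thus closer in coding sequence to Cav1 than Cav2 is. Among the cavins, coding identity ranged from 44.0% for Cavin3 and Cavin4 to 55.1% for Cavin1 and Cavin2. The longest exact stretch shared by the main transcripts of any of the 21 pairs was 16 bases (Cavin1 and Cavin4), so no pair is a near-identical copy.

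The main transcript of Cav1 encodes 178 codons, against 162 for Cav2 and 151 for Cav3. The cavins are longer, with 392 codons for Cavin1, 418 for Cavin2, 260 for Cavin3 and 362 for Cavin4. All 3 caveolin genes lie on mouse chromosome 6 (mm10), with Cav2 at 17281185-17289115 and Cav1 at 17306335-17341452, both on the plus strand and 17.2 kb apart. Cav3 lies at 112459505-112472872, also on the plus strand, 95118 kb beyond Cav1. The cavins are spread over 4 chromosomes: Cavin1 at 11:100956733-100970887 (minus strand), Cavin2 at 1:51289126-51302960 (plus), Cavin3 at 7:105480083-105482300 (minus) and Cavin4 at 4:48663514-48673502 (plus).

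Among the caveolins, Cav1 was the highest, Cav3 came next and Cav2 was far lower. Cav1 measured 53.5 TPM in replicate 1 and 49.6 TPM in replicate 2, from 3287 and 2809 expected counts (51.6 ± 2.70 TPM). Cav3 measured 38.2 and 36.2 TPM from 1276 and 1214 counts (37.2 ± 1.41 TPM). The values of Cav1 and Cav3 did not overlap between the animals, and Cav1 was the higher in each. Cav2 measured 7.82 and 8.21 TPM from 581 and 564 counts (8.02 ± 0.276 TPM), below the other caveolins in both animals.

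As a share of all caveolin TPM, Cav1 held 53.3% ± 0.682, Cav3 38.4% ± 0.0686 and Cav2 8.29% ± 0.613. Cav3 stood at 0.715 of the Cav1 level in replicate 1 and 0.729 in replicate 2, a log2 ratio of -0.47 ± 0.02. Cav1 stood 6.44 ± 0.559 times as high as Cav2, and Cav3 4.65 ± 0.335 times as high as Cav2. Among 22015 nuclear protein-coding genes ranked by mean TPM, Cav1 was at rank 841, Cav3 at 1173 and Cav2 at 4566.

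Among the cavins, the shared coat gene Cavin1 was the highest and the muscle form Cavin4 came next. Cavin1 measured 72.3 and 59.97 TPM from 6481 and 5204 counts (66.2 ± 8.74 TPM), the highest level of the 7 genes in both animals. Cavin4 measured 41.5 and 38.95 TPM from 2563 and 2413 counts (40.2 ± 1.82 TPM). Both values of Cavin4 lay below both values of Cavin1 and above both values of Cavin2 and Cavin3.

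Cavin2 and Cavin3 were low. Cavin2 measured 16.1 and 14.1 TPM from 1503 and 1316 counts (15.1 ± 1.45 TPM). Cavin3 measured 8.35 and 5.35 TPM from 412 and 265 counts (6.85 ± 2.12 TPM), the lowest mean of the 7 and the widest spread relative to its mean. Cavin4 stood 2.68 ± 0.137 times as high as Cavin2, a log2 ratio of 1.42 ± 0.07, and 6.13 ± 1.63 times as high as Cavin3. In shares of cavin TPM, Cavin1 held 51.5% ± 1.14, Cavin4 31.5% ± 2.05, Cavin2 11.8% ± 0.165 and Cavin3 5.28% ± 1.07. Cavin1 was at rank 660 among protein-coding genes, Cavin4 at 1080, Cavin2 at 2800 and Cavin3 at 5095.

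**Figure D1:**
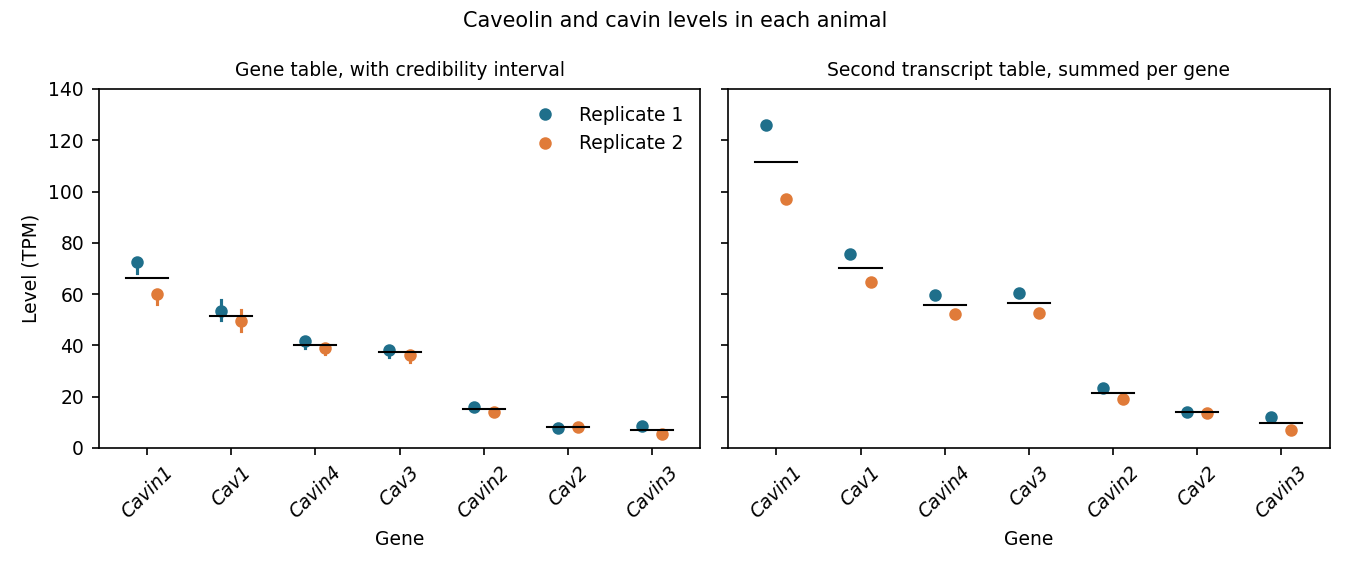
Level of each gene in TPM in the gene table (left, vertical lines are the deposited credibility intervals) and summed from the second transcript table (right); points are the 2 animals and the black line their mean. Cavin1 and Cav1 lead in both tables, Cavin4 and Cav3 lie side by side, and Cavin2, Cav2 and Cavin3 are lowest.

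In the gene table the order of the 7 levels ran Cavin1, Cav1, Cavin4, Cav3, Cavin2, Cav2, Cavin3. Of neighbours in this order, only Cav2 and Cavin3 overlapped between the animals. The second transcript table is a separate quantification of the same libraries and gave higher TPM for all 7 genes, from 7.13 TPM for Cavin3 in replicate 2 to 126 TPM for Cavin1 in replicate 1. There Cav3 (60.3 and 52.5 TPM) and Cavin4 (59.7 and 52.0 TPM) changed places and overlapped, and Cav2 (14.1 and 13.5 TPM) lay above Cavin3 (11.9 and 7.13 TPM) in both animals. The muscle forms Cav3 and Cavin4 thus had closely similar levels in either table, with a Cavin4 to Cav3 ratio of 1.08 ± 0.00795 in the gene table and 0.99 in the second table.

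Summed over each family, the caveolins reached 99.5 and 94.1 TPM and the cavins 138 and 118 TPM. The ratio of cavin to caveolin TPM was 1.39 in replicate 1 and 1.26 in replicate 2 (1.32 ± 0.0936). The muscle forms Cav3 and Cavin4 together held 33.5% and 35.4% of the TPM of the 7 genes (34.5% ± 1.32). The rest was Cavin1, which caveolae need in muscle and non-muscle tissues alike, and Cav1, Cav2, Cavin2 and Cavin3, which are not muscle-restricted. Cavin1 alone measured 72.3 and 59.97 TPM. No transcript was assigned to a cell type here. These shares therefore do not show that caveolin and cavin RNA of non-muscle cells outweighed that of muscle fibres.

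**Figure D2:**
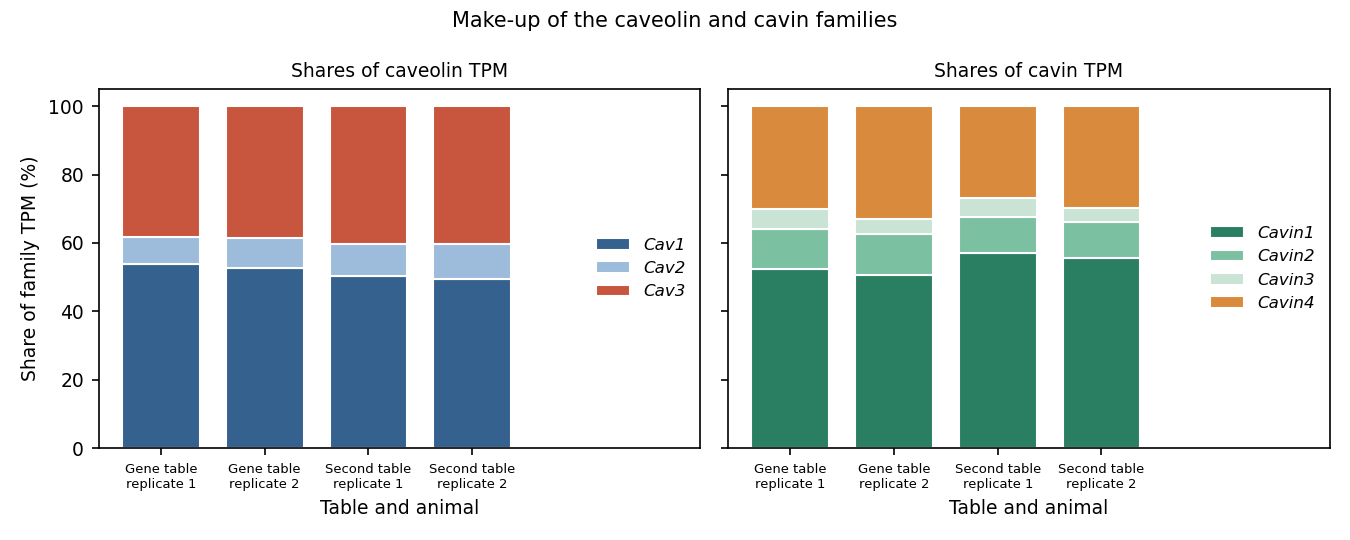
Share of caveolin TPM (left) and cavin TPM (right) held by each gene, as stacked bars adding to 100% for each table and animal. In the gene table Cav3 holds 38.4% of caveolin TPM and Cavin4 31.5% of cavin TPM on average, against 40.2% and 28.3% in the second table.

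Cav1 has 10 annotated transcripts, and its place above Cav3 depended on the short ones among them. Cav1-201, the full transcript of 3 exons and 2522 bases, had 31.4 and 25.5 TPM in the first transcript table, 55.0% ± 5.13 of the gene. Cav1-202, of 2746 bases, had 8.00 and 7.06 TPM, 14.6% ± 0.525 of the gene. It starts 1.305 kb further along, within the first intron, and reads straight into the exon that Cav1-201 uses as its second. The other 8 transcripts are 323 to 995 bases long and held 26.4% and 34.4% of Cav1 TPM, but only 6.66% and 9.19% of its expected counts. Dividing by a small length raises the TPM of such transcripts for each read assigned.

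The largest of these short transcripts was Cav1-203, of 613 bases, at 6.72 and 12.1 TPM, higher in replicate 2 where Cav1-201 and Cav1-202 were lower. With Cav1-201 and Cav1-202 alone, Cav1 had 39.4 and 32.6 TPM. The log2 ratio of Cav3 over this sum was -0.04 in replicate 1 and 0.15 in replicate 2, and 0.03 and 0.20 in the second table. Without the short transcripts the order of Cav1 and Cav3 therefore differed between the animals in the first table and turned in the second. This split is by transcript length and not by coding sequence. Among the short transcripts left out, Cav1-205 encodes 178 codons and Cav1-203 147. With coding transcripts only, short ones kept, the log2 ratio was -0.40 ± 0.04. A further 3 transcripts are named after their values were seen. Cav1-208, of 345 bases, held 4.52% ± 1.21 of the gene in the first table and was listed at 0 in the second. Cav1-204 and Cav1-210 were at 0 in both animals, and by counting error alone the floor of 3 counts allows each up to 0.0913% of the Cav1 counts in replicate 1 and 0.107% in replicate 2.

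Cav1-202 matters for the protein as well, since its annotated coding sequence starts inside that of Cav1-201. The stretch below is coding bases 64 to 123 of Cav1-201 on the sense strand, and the capitals mark the internal start codon at base 94.
Cav1: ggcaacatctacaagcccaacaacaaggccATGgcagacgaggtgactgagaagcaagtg
Translation from this codon, codon 32, leaves out the first 31 codons and gives 147 codons in place of 178. A long and a short form of caveolin-1 with these different starts are known as the alpha and beta forms. Cav1-203 has the same internal start.

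The balance of Cav1-202 and Cav1-201 depended on the table. In the first table Cav1-202 stood at 0.255 and 0.277 of Cav1-201 in the animals. This ratio leaves out Cav1-203, which has the same internal start (6.72 and 12.1 TPM). It also leaves out Cav1-205, which encodes 178 codons like Cav1-201 (2.42 and 1.01 TPM). The ratio thus understates the internal start in the first table, and more so in replicate 2. In the second table Cav1-202 had 31.4 and 27.7 TPM, or 42.2% ± 1.07 of the gene, against 27.8 and 18.0 TPM for Cav1-201 (32.3% ± 6.14). The ratio of Cav1-202 to Cav1-201 was then 1.13 and 1.54, so that their order turned in both animals. These values do not settle which start was used more.

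**Figure D3:**
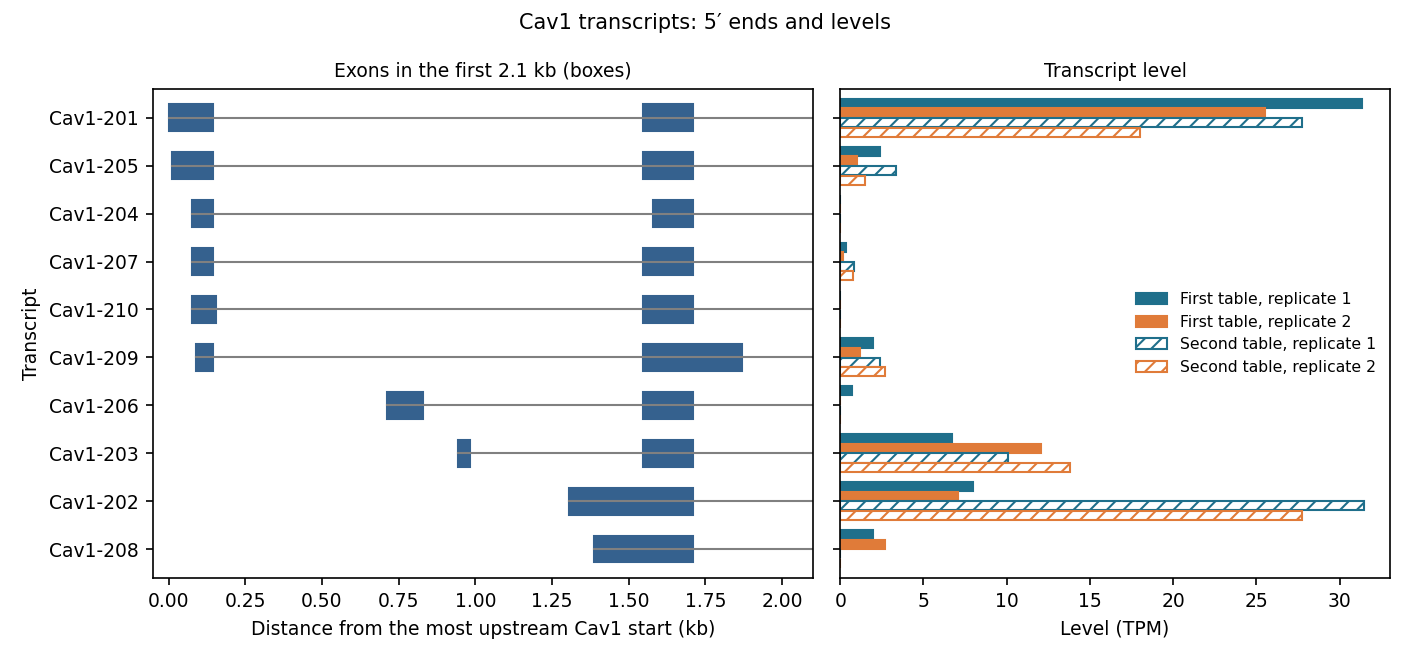
Left, exons (boxes) of the 10 Cav1 transcripts over the stretch beside the most upstream start, as distance in kb; right, level of each transcript in TPM in both tables and both animals. Cav1-201 is the highest in the first table (31.4 and 25.5 TPM), and Cav1-202 the highest in the second (31.4 and 27.7 TPM).

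Of the other members, Cav2 and Cavin1 have more than 1 transcript. Cav2-201 held 81.2% ± 5.81 of Cav2 TPM in the first table and 62.7% ± 5.98 in the second, and the 694-base Cav2-203 held 14.8% ± 10.01 and 35.5% ± 7.88. In the first table the share of Cav2-203 was 7.67% in replicate 1 and 21.8% in replicate 2, so its mean rests on animals far apart. Cavin1-201, the coding transcript, had 58.2 and 46.1 TPM (78.7% ± 2.47 of the gene). Cavin1-202 is a 658-base transcript with no annotated coding sequence. It had 14.2 and 13.8 TPM (21.3% ± 2.47), but only 3.85% and 4.71% of the Cavin1 counts. Counting coding transcripts only, Cavin1 (58.2 and 46.1 TPM) and Cav1 (51.2 and 46.8 TPM) overlapped, and Cav1 was the higher in replicate 2. Cav3, Cavin2, Cavin3 and Cavin4 each have a single annotated transcript, so their levels do not depend on such a division.

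The bases upstream of the start sites are shown for the muscle forms and for both Cav1 starts, since these are the forms whose levels are compared above. Promoters of 6 of the 7 genes were matched by symbol in RefSeq (GRCm38.p6, the assembly named mm10), 8 in all, with none for Cavin3. Each run below is the 250 bases before the start on the plus strand, and capitals mark matches to any of 6 motifs searched on both strands.
Cav3, chr6:112459255-112459504: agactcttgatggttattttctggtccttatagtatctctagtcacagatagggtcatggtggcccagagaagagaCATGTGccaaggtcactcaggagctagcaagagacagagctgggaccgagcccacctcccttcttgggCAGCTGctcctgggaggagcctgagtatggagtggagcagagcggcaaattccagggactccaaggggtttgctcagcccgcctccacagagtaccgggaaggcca
Cavin4, chr4:48663264-48663513: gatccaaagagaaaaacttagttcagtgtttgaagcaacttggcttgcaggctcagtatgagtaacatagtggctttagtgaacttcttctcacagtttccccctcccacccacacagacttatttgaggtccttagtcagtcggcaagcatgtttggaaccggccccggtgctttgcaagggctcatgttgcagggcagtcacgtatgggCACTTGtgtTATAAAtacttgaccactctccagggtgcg
Cav1 upstream start, chr6:17306085-17306334: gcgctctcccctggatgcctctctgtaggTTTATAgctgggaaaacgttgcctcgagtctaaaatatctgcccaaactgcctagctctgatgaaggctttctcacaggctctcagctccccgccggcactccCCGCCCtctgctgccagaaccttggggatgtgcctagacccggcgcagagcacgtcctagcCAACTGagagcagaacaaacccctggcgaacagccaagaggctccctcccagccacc
Cav1 downstream start (Cav1-202), chr6:17307390-17307639: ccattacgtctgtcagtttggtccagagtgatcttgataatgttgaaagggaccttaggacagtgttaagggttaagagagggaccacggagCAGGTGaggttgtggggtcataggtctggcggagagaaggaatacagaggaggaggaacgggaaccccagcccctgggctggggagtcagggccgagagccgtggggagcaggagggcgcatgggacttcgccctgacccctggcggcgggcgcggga
The motifs were the E-box (CANNTG), the GC box (GGGCGG), the TATA box (TATAAA), the M-CAT box (CATTCC), and the MEF2 and CArG boxes, and no matches overlapped in these 4 windows. Cav3 held E-boxes, the motif bound by MyoD and related factors, beginning 174 and 106 bases before its start. The window of the non-muscle form Cav2, not printed here, also held E-boxes, at 140 and 47 bases. Cavin4 held an E-box 39 bases and a TATA box 30 bases before its start. The upstream Cav1 window held an E-box at 57, a GC box at 118 and a TATA box at 221 bases before the start. Its GC and TATA letters read on the minus strand, whereas the TATA letters of Cavin4 read on the plus strand. The downstream Cav1 window held an E-box at 158. E-boxes are common: 66.2% of 32851 RefSeq promoter windows of 250 bases held one, against 32.7% for the GC box, 12.4% for the TATA box, 12.6% for the M-CAT box, 2.92% for the MEF2 box and 1.47% for the CArG box. The MEF2 and CArG letters were found in none of the 8 windows. The GC content was 56% for Cav3, 48.8% for Cavin4, 59.6% for the upstream and 60.8% for the downstream Cav1 window, with a median of 52.4% over all windows.

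Genes that work with caveolae were followed in 4 lists. Of these 27 genes, 25 were detected at 1 TPM or more in both animals. The neck and coat accessory genes had 7 of 8 detected and summed to 213 and 235 TPM. Pacsin3, the muscle-rich member of a family of membrane-bending proteins, was the highest at 131 and 151 TPM. Ehd2, an ATPase that sits at the neck of caveolae, had 19.5 and 19.4 TPM, and its relative Ehd4 had 13.3 and 16.5 TPM. The neuronal form Pacsin1 was the lowest, at 0.11 and 0.24 TPM.

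The partners of caveolin-3 in muscle had 8 of 9 detected and summed to 1243 and 1643 TPM. Most of that sum was Pfkm, the muscle phosphofructokinase of glycolysis, at 791 and 1165 TPM. Bin1, which shapes the T-tubule membrane, had 217 and 244 TPM, and the cation channel gene Trpc1 had 0.30 and 0.23 TPM. Of the endothelial cargo genes, 5 of 5 were detected. Aqp1, a water channel, had 99.1 and 102 TPM. Cd36, a fatty acid carrier that muscle fibres and fat cells also express, had 76.6 and 107 TPM, while Nos3, the endothelial nitric oxide synthase, had 2.52 and 2.17 TPM. Of the fat cargo genes, 5 of 5 were detected, led by Slc2a4, the insulin-responsive glucose transporter that muscle fibres express too, at 111 and 155 TPM. Lpl, lipoprotein lipase, had 87.5 and 121 TPM, and the amine oxidase Aoc3 was the lowest at 3.07 and 2.87 TPM.

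Between the animals, none of the 7 genes was at least 2-fold apart with separate credibility intervals, where 257 of 11632 genes with a mean of 50 expected counts or more were (2.21%). At 1.5-fold, Cavin3 alone met the rule, as did 6.43% of all genes tested. With separate intervals at any fold, 3 of the 7 were lower in replicate 2 (Cavin1, Cavin2 and Cavin3), against 9.39% of all genes. The width of an interval depends on the counts, and this share was not matched to the counts of the members. The log2 ratio of replicate 2 over replicate 1 was below 0 for 6 of the 7, against 49.0% of all genes. The median log2 ratio was -0.11 over the members and 0.00 over all genes tested. With 1 animal on each side, these are descriptions of a pair of libraries.

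Cavin3 differed the most, at 1.56 times as high in replicate 1 (log2 ratio -0.63), with intervals of 7.42 to 9.002 TPM and 4.62 to 5.89 TPM. Cavin1 had a log2 ratio of -0.27, with intervals of 68.1 to 73.8 and 56.2 to 61.6 TPM. Cavin2 had -0.20, with intervals of 15.0 to 16.6 and 13.0 to 14.5 TPM. The intervals of Cav1 (log2 ratio -0.11), Cavin4 (-0.09), Cav3 (-0.08) and Cav2 (0.07) overlapped between the animals. In the second table all genes tested had a median log2 ratio of -0.11, and the members' ratios relative to that median were -0.63 for Cavin3, -0.27 for Cavin1, -0.21 for Cavin2, -0.13 for Cav1, -0.09 for Cav3 and Cavin4 and 0.05 for Cav2. Without that centring Cav2 changed sign, to -0.06, and all 7 were below 0, as were 65.3% of all genes tested in that table.

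**Figure D4:**
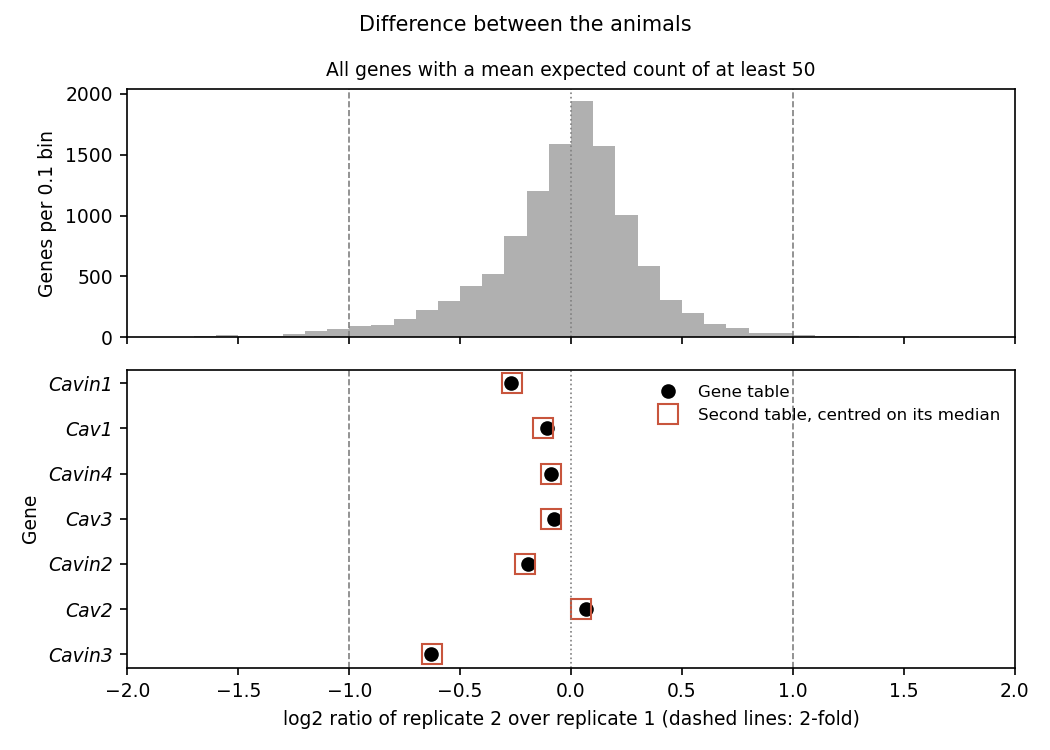
Top, number of genes in bins of 0.1 of the log2 TPM ratio of replicate 2 over replicate 1, over the 11632 genes tested (ratios beyond 2 on either side are not drawn). Bottom, the same ratio for the 7 genes in the gene table (points) and, centred on its median, in the second table (squares); all lie between the dashed 2-fold lines, with Cavin3 the lowest at -0.63.

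Markers of other cell types moved between the same animals, and their part in the differences of Cavin1, Cavin2 and Cavin3 was not tested. Endothelial markers had 9 of 9 detected, with 4 of 9 lower in replicate 2 and a median log2 ratio of 0.04. Among them Cdh5 had 17.8 and 18.7 TPM, Egfl7 14.7 and 25.2, Kdr 2.69 and 5.12, and Emcn 4.31 and 2.93. Smooth muscle and pericyte markers had 7 of 8 detected and summed to 150 and 118 TPM, with 4 of the 7 tested lower in replicate 2, 3 higher and a median log2 ratio of -0.06. In that list Rgs5 had 73.5 and 63.9 TPM, Acta2 31.9 and 20.0, Tagln 24.9 and 13.0, and Cnn1 1.05 and 0.86. Vessel markers thus moved in both directions between the animals.

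Adipocyte markers had 5 of 8 detected and were higher in replicate 2 in 6 of the 6 with enough counts, such as Cfd at 19.6 and 34.8 TPM and Fabp4 at 79.3 and 84.5. Fibroblast markers had 6 of 6 detected and summed to 1388 and 698 TPM, with Col1a1 at 730 and 326 TPM. Of the Schwann cell markers, Mbp had 137 and 30.2 TPM and Cdh19 1.18 and 0.51 TPM. Tendon markers had 3 of 4 detected and summed to 81.3 and 45.01 TPM, and macrophage markers 4 of 4 and 17.6 and 10.8 TPM. Fibroblast, tendon and macrophage sums and the named Schwann cell genes were thus lower in replicate 2, and no marker named here was at 0.

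The other caveola genes moved less uniformly. The median log2 ratio was -0.01 for the accessory genes, 0.11 for the muscle partners, -0.14 for the endothelial cargo and 0.44 for the fat cargo, against 0.00 over all genes. None of the 25 of these genes that had enough counts was 2-fold apart with separate credibility intervals. Of all genes tested 2.21% were, so a count of 0 among 25 is near that share. Slc2a4, Lpl, Cd36 and Pfkm had log2 ratios from 0.46 to 0.56, in the direction opposite to the caveolins and cavins other than Cav2.

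The protein-coding genes nearest in level over both animals were Sema4d (52.9 and 49.7 TPM) and Trim35 for Cav1, Rtf1 and Blzf1 for Cav2, and Cobl (37.9 and 36.1 TPM) and Rbm39 for Cav3. For the cavins they were Rps23 and Rgs5 for Cavin1, Mapre1 and St6galnac6 for Cavin2, Lats2 and Itih5 for Cavin3, and Camk2b (41.7 and 38.7 TPM) and Ss18l2 for Cavin4. The measure was the distance in log2 TPM over 2 libraries, so it describes level only. For 4 of the members an annotated gene lies on the opposite strand: Gm15581 over Cav1 and Cav2, 9330175M20Rik over Cavin2 and, for 374 bases, Gm45667 over Cavin3. These were at 0 to 0.16 TPM in the gene table. Whether the counting used strand is not given in the sources here.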

How the data were processed

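Per the labels, the libraries were stranded, ribosomal RNA-reduced and started from 300 ng of total RNA. For each library the authors deposited gene-level values and transcript-level values from 2 quantifications. Per the deposited notes, these are on mm10 with GENCODE M21. No aligner or quantifier is named in the sources at hand. At gene level the authors deposited expected counts (estimated reads), TPM, FPKM, a posterior mean TPM, credibility bounds of unstated level, and the percent of a gene per transcript. The second transcript table holds estimated counts and TPM, summed here per gene. TPM includes very short RNAs, so levels depend on what else is counted.

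Shares and ratios were computed within each library with pandas 2.3.3 (Python 3.11.15). Ratios between animals used log2(TPM + 0.1), a mean of at least 50 expected counts, a fold of at least 2 and separate credibility intervals. The rule was tried on simulated counts with sampling noise only, so its false calls at the spread seen here are not known. The deposited intervals cover counting and read assignment only. The libraries differed beyond sampling noise (chi-square 31.9 per degree of freedom over 16574 genes). Coding sequences were aligned with MAFFT 7.526. Alternatives were the second table, FPKM, posterior means, coding transcripts only, other thresholds and, chosen after seeing the data, Cav1-201 and Cav1-202 alone for Cav1.

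Members and the 12 lists (80 genes) were chosen with earlier results of these data known. Named were all members, the 2 nearest genes of each, transcripts with at least 5% of their gene, and of each list up to 4: the 2 highest, the lowest and the largest ratio between animals at 1 TPM or more. Not every gene this rule allows is named, and the summed level of the Schwann cell list is not reported here.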

Additional observations from a re-analysis of the deposited data

How the results depend on the processing

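The Cav3 share of caveolin TPM (38.4% in the gene table) was 40.2% in the second table and 37.9% from posterior means. It was 39.5% with coding transcripts only and 45.9% with Cav1-201 and Cav1-202 alone for Cav1. The Cavin4 share of cavin TPM (31.5%) was 28.3% in the second table and 35.4% with coding transcripts only. The log2 ratio of Cav3 over Cav1 (-0.47) was -0.31, -0.50 and -0.40 in the second table, from posterior means and with coding transcripts only. It turned to 0.055 ± 0.14 with Cav1-201 and Cav1-202 alone for Cav1, an alternative that leaves out 8 short Cav1 transcripts by construction. The share of Cav1-202 rose from 14.6% to 42.2% of its gene in the second table, and the cause was not tested. The count of members apart between animals was 0 at 2-fold and 1 at 1.5-fold, and 0 under the other 6 alternatives. The log2 ratio of Cavin4 over Cavin2 moved by less than its SD under each alternative run, such as 1.40 in the second table. Leaving out either animal leaves the value of the other, with a range of 38.4% to 38.5% for the Cav3 share, 30.02% to 32.9% for the Cavin4 share, -0.48 to -0.46 for Cav3 over Cav1 and 14.2% to 15.0% for Cav1-202. Of 42 single-gene and single-transcript values recomputed with both animals, 15 moved by less than the spread between them and 27 by more. Levels rescaled over nuclear protein-coding genes were higher, such as 125 TPM for Cav1 and 90.3 TPM for Cav3. The 25 genes detected in the caveola lists were 21 at a threshold of 5 TPM. No paired analysis was possible because there is 1 group and no result comes from a test. Depth limits Cavin3 most, at 265 expected counts in replicate 2.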
